A study of Mus musculus with 6 samples.

Results

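The 34 genes described here mark or specify the layers and projection neuron classes of the cerebral cortex, and were taken by name from a list drawn up with earlier results of these data known. All 34 were found among the 20040 entries of the table, and all 34 passed the filter on low values that left 14983 genes for testing. They were read in 6 libraries of mRNA from cultured cortical neurons, prepared from C57BL/6 mouse embryos at embryonic day 18, of which 3 are labelled wild type (WT) and 3 KDM6B KO (knockout). The labels do not say which part of the gene was deleted, in which cells, how long the cells were cultured, how many embryos made up a sample or whether the replicates are separate cultures, so the spread that p-values rest on here may be a technical one. KDM6B is a demethylase that strips the repressive methyl groups off lysine 27 of histone H3, and the question is whether layer genes differ in its absence.

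Excitatory neurons of the cortex are born in order, deep-layer cells first and upper-layer cells later. A small network of transcription factors, many of which repress each other, then fixes whether a cell sends its axon to the other hemisphere, the thalamus, the brainstem or the spinal cord. The genes were sorted here into 7 upper-layer genes (Cux1, Cux2, Pou3f1, Pou3f2, Pou3f3, Rorb and Mdga1), 13 deep-layer genes (Bcl11b, Fezf2, Tbr1, Foxp2, Sox5, Tle4, Ldb2, Crym, Etv1, Lmo3, Zfpm2, Tshz2 and Tshz3), 6 genes of several layers (Bcl11a, Foxp1, Mef2c, Zbtb18, Lmo4 and Id2), 3 nuclear factor I genes (Nfia, Nfib and Nfix) and 5 genes that pattern the cortical field (Emx1, Emx2, Lhx2, Nr2f1 and Nr2f2). This is a textbook grouping: several of these genes are also expressed outside their layer, in interneurons, glia, striatum or hippocampus.

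The values are TPM, a share of transcripts scaled by gene length that sums to 1000000 in each library. The whole counts behind them, recovered from the step size of the values, added up to between 19763719 and 23505944 per library. Kdm6b fell in KO to 37.3% of WT (mean ± SD of 30.6 ± 0.279 against 11.4 ± 0.536 TPM, n = 3 each). The labels do not give the deleted part, so how much of the rest is intact transcript cannot be told. Y-chromosome transcripts (Uty, Kdm5d, Ddx3y, Eif2s3y) lay between 7.53 and 43.8 TPM in the WT libraries and at most 0.472 TPM in the KO libraries, while Xist stood at 74.0 TPM in WT and 231.5 TPM in KO. The sex mix of the cultures thus differs along with the genotype, and the effects of the pair cannot be told apart, although none of the 34 genes lies on X or Y.

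At a Benjamini-Hochberg adjusted p below 0.05 over all 14983 genes (limma on log2 of TPM plus 0.5), 9 of the 34 genes were higher in KO, 8 were lower and 17 did not pass; over all genes tested 4.15% were higher and 6.74% lower. In either direction 17 of 34 passed, where 10.9% of all tested genes did, or 12.7% of the 11487 genes at or above the level of the lowest of the 34. Given how the genes were chosen, this share is a description. Both layer groups moved both ways: 3 upper-layer genes rose and 1 fell, and 3 deep-layer genes rose and 3 fell. The median log2 fold change was 0.01 for the upper-layer genes, -0.05 for the deep-layer genes and -0.02 for all genes tested. The layer medians are the values of Cux1 and Etv1. Summed levels did not overlap between WT and KO libraries. Upper-layer genes summed to 218.2 to 232.1 TPM in WT and 244.47 to 256.54 TPM in KO. Deep-layer genes summed to 665.15 to 676.44 TPM in WT and 635.87 to 653.31 TPM in KO. Such sums rest most on the most abundant genes, and the difference was not tested.

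**Figure D1:**
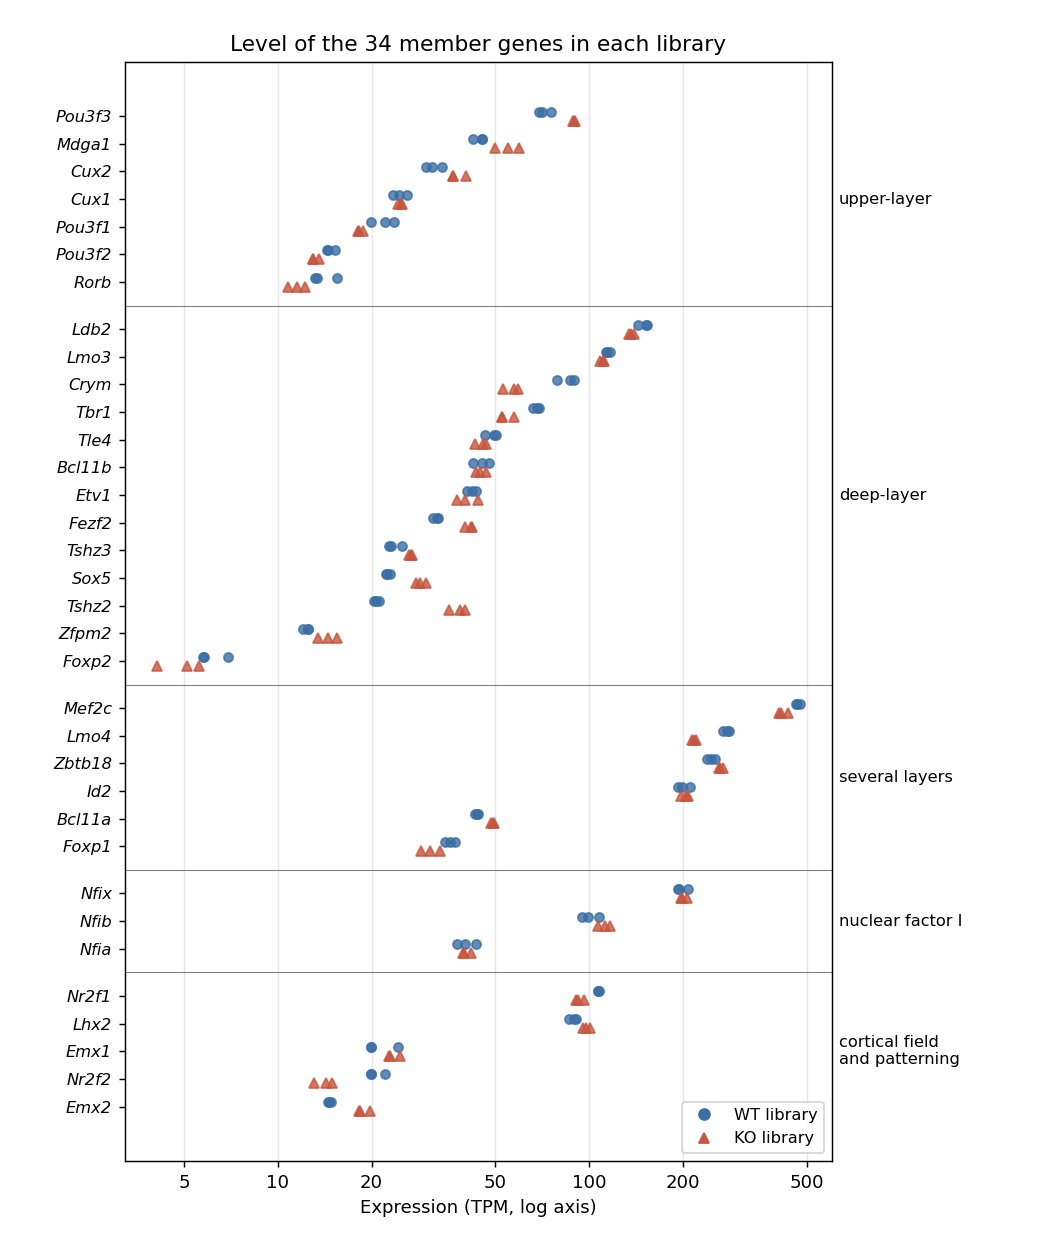
Level of each of the 34 genes in each library, in TPM on a log axis, with WT libraries as circles and KO libraries as triangles, sorted by group and by the WT mean. Mef2c is highest and Foxp2 lowest, and Tshz2, Crym and Nr2f2 show the widest gaps between the groups.

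The levels themselves ranged from 6.15 TPM for Foxp2 to 468.8 TPM for Mef2c in WT, with a median of 42.8 TPM. After Mef2c came Lmo4 at 275.9 ± 6.31 TPM and Zbtb18 at 246.4 ± 7.72 TPM. Next were Id2 and Nfix, at 201.1 ± 9.63 and 198.8 ± 8.50 TPM, whose WT libraries overlap. Ldb2 was the most abundant deep-layer gene at 149.8 ± 5.15 TPM, and Pou3f3 the most abundant upper-layer gene at 71.8 ± 3.41 TPM. At the low end Emx2, Pou3f2 and Rorb stood at 14.6, 14.7 and 14.0 TPM, also with overlapping libraries, above Zfpm2 at 12.3 TPM. Replicates were close: the coefficient of variation had a median of 3.89% in WT and 3.49% in KO, and was largest for Emx1 in WT (12.0%) and for Foxp2 in KO (15.5%). Emx1 rested on 162 to 211 counts per library and Foxp2 on 191 to 367, while the median over the 34 genes of the lowest count in any library was 1360.

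**Figure D2:**
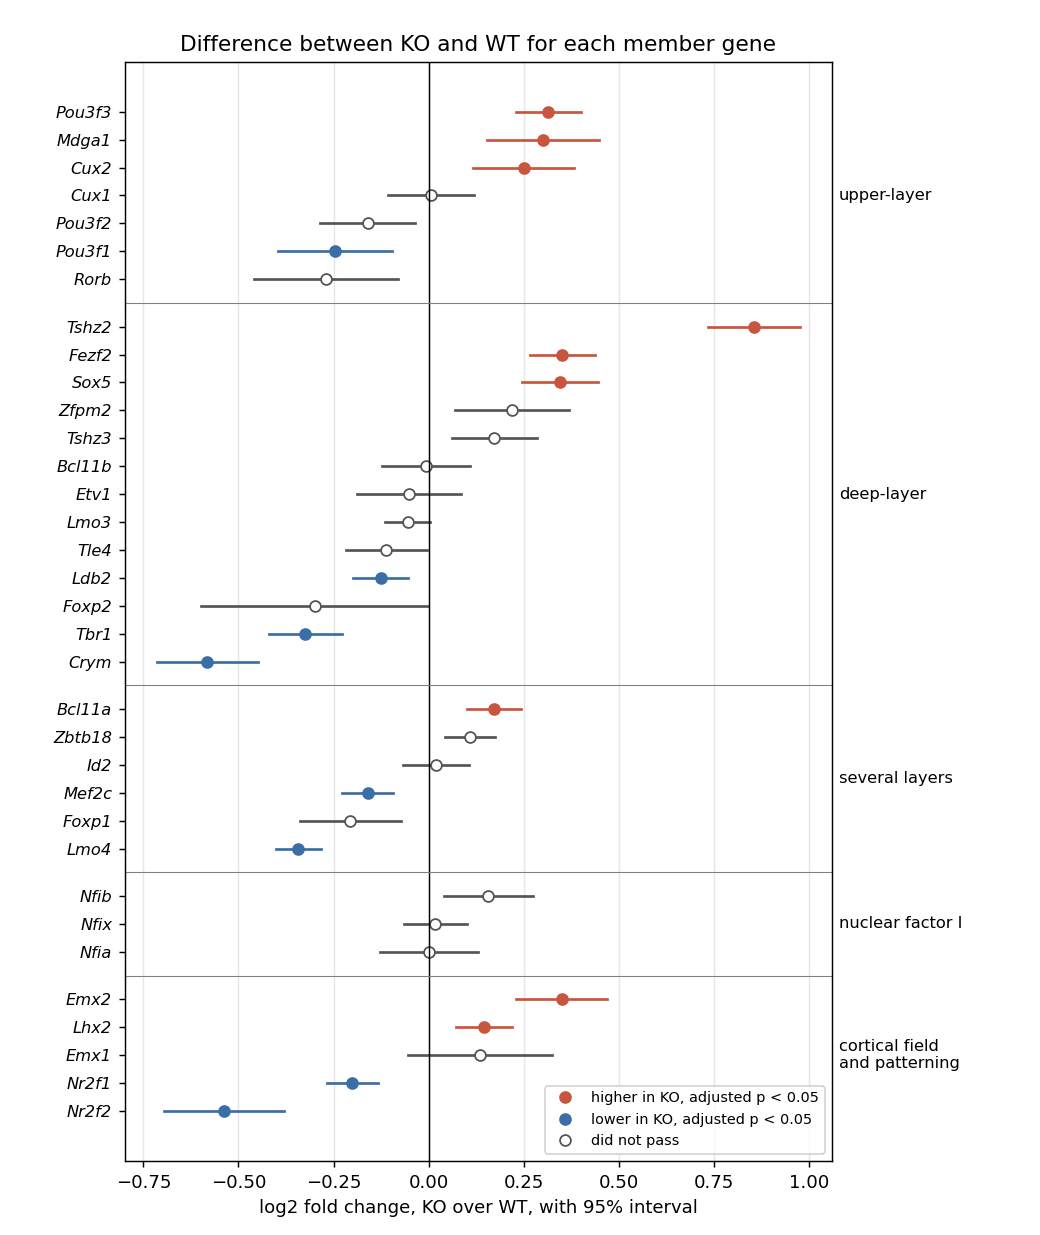
Log2 fold change of KO over WT for each of the 34 genes, with its 95% interval from limma; filled points passed at an adjusted p below 0.05 and open points did not. Rises and falls occur in every group but the nuclear factor I genes, from -0.58 for Crym to 0.86 for Tshz2.

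The upper-layer genes split. Pou3f3, Mdga1 and Cux2 rose, Pou3f1 fell, and Cux1, Pou3f2 and Rorb did not pass. Pou3f3 (Brn1, on chromosome 1 from 42695768 to 42703176, GRCm38) is a POU-domain factor with a role in the production and migration of upper-layer neurons. It had 75.7, 69.3 and 70.5 TPM in WT replicates 1, 2 and 3 and 89.9, 88.9 and 89.3 TPM in KO replicates 1, 2 and 3. The groups do not overlap, and the KO libraries lie within 2 TPM of each other. Its rise was 1.24-fold (log2 fold change 0.31 ± 0.04 SE, adjusted p = 0.0020). The entry Pou3f3os, named as its opposite-strand transcript, rose 1.29-fold as well (152.0 ± 4.90 to 196.1 ± 8.25 TPM, adjusted p = 0.0013). Whether the counting used strand is not given in the sources used here, so reads that the 2 entries might share cannot be told apart.

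Mdga1, a membrane-anchored adhesion protein of layer 2 and 3 neurons that binds neuroligin, measured 45.3, 45.4 and 42.4 TPM in WT against 49.9, 55.1 and 59.6 in KO. Cux2, a homeobox factor that promotes dendrite branching and spine formation, measured 33.6, 31.4 and 29.98 TPM in WT against 36.5, 36.5 and 40.3 in KO. In both genes every KO library exceeded every WT library, with wider KO spread in Mdga1. The rises were 1.24-fold for Mdga1 (adjusted p = 0.023) and 1.19-fold for Cux2 (adjusted p = 0.031). Both calls were close to the threshold. Mdga1 lost its call without WT replicate 1, 2 or 3 or KO replicate 2 or 3 (adjusted p 0.0525 to 0.072). Cux2 lost its call without WT replicate 2 or 3 or any KO replicate (0.055 to 0.0853). Mdga1 and Cux2 also lost it without the variance trend (0.0751 and 0.0792) and with the replicate block (0.0664 and 0.0888). Cux1, the paralogue of Cux2 with a broader pattern, had overlapping groups at 24.6 ± 1.31 and 24.7 ± 0.443 TPM, and its 95% interval ran from -0.11 to 0.12 on the log2 scale.

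Pou3f1, a POU-domain factor of upper-layer and layer 5 neurons, measured 23.7, 22.1 and 20.0 TPM in WT against 18.2, 18.1 and 18.7 in KO. Every KO library lay below every WT library, and WT replicate 1 was the highest. It fell to 83.7% of WT at an adjusted p of 0.0495, and the call was lost in 11 of 16 alternatives, among them each fit without WT replicate 1, WT replicate 2 or any KO replicate (adjusted p 0.0978 to 0.139). Pou3f2 (Brn2) stood at 14.7 ± 0.507 TPM in WT and 13.1 ± 0.342 TPM in KO (adjusted p = 0.10). Rorb, the nuclear receptor of layer 4 neurons, stood at 14.0 ± 1.34 and 11.5 ± 0.716 TPM, 82.2% of WT (adjusted p = 0.075). In both of these the 3 KO libraries also lay below the 3 WT libraries, a pattern shown by 19.2% of all tested genes.

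The deep-layer genes held the largest rise and the largest fall of the 34. Tshz2 rose 1.83-fold, Fezf2 and Sox5 rose 1.28-fold each, Crym fell to 66.6% of WT, Tbr1 to 79.8% and Ldb2 to 91.5%, and the other 7 did not pass. Tshz2 (chromosome 2, 169633013 to 170071816), a teashirt-type zinc finger factor, measured 20.3, 21.2 and 20.6 TPM in WT against 35.4, 40.04 and 38.4 in KO. No KO library came near the WT range. The log2 fold change was 0.86 ± 0.05 SE (adjusted p = 1.6e-04), which ranks 290 by size among the 14983 genes tested. An antisense entry that overlaps its exons, A630075F10Rik, stayed at or below 0.132 TPM in each library. Tshz3, its paralogue, stood at 23.6 ± 1.24 TPM in WT and 26.7 ± 0.309 TPM in KO, without overlap between the groups (112.9% of WT, adjusted p = 0.059, or 0.0371 without WT replicate 2). For Tshz3, leaving out any other library gave a limma adjusted p of 0.113 to 0.172.

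Fezf2 and Tbr1 are opposed factors of deep-layer fate. Fezf2 is the zinc finger selector of layer 5 neurons that project below the cortex, and Tbr1 is the T-box factor of layer 6 corticothalamic neurons that represses Fezf2. Fezf2 (chromosome 14, 12342094 to 12348189) measured 32.6, 31.5 and 32.6 TPM in WT against 42.0, 40.01 and 41.8 in KO (log2 fold change 0.35 ± 0.04 SE, adjusted p = 0.0014). Tbr1 (chromosome 2, 61802930 to 61814114) measured 68.8, 66.2 and 68.2 TPM in WT against 52.6, 52.3 and 57.3 in KO (log2 fold change -0.32 ± 0.04 SE, adjusted p = 0.0028). The groups are clear of each other in both genes, in opposite directions. Within each library the ratio of Fezf2 to Tbr1, which does not depend on how a library is scaled, was 0.473, 0.476 and 0.478 in WT and 0.798, 0.765 and 0.730 in KO, on average 1.61 times the WT ratio.

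Sox5, an SRY-box factor of layer 6 and subplate neurons that restrains Fezf2 and Bcl11b there, rose too (chromosome 6, 143828425 to 144781977). It measured 22.4, 22.9 and 22.2 TPM in WT against 29.9, 28.6 and 27.8 in KO (log2 fold change 0.34 ± 0.04 SE, adjusted p = 0.0026). Its groups do not overlap. Bcl11b (Ctip2), which guides the axons of subcerebral neurons and acts downstream of Fezf2, measured 45.4, 42.3 and 47.6 TPM in WT against 46.5, 43.3 and 44.6 in KO. Its groups overlap, and the 95% interval of its log2 fold change ran from -0.12 to 0.11, below the 0.35 of Fezf2.

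The promoter sequences of Tshz2, Fezf2 and Tbr1, and of the field gene Nr2f2, are shown as examples of genes that rose and fell, picked after their values were seen. The histone mark that KDM6B removes is known to settle on CpG-rich promoters, but it was not measured here. Each runs from 250 bases before to 50 after a RefSeq start (GRCm38.p6), 5′ to 3′ on the gene's strand, with every CG dinucleotide in capitals; which start these neurons use is not known from the data. Tshz2 lies at chr2:169632259-169632558 (plus strand), Fezf2 at chr14:12345816-12346115 (minus), Tbr1 at chr2:61804203-61804502 (plus) and Nr2f2, described further on, at chr7:70366697-70366996 (minus). Set against the gene spans given here, the Tshz2 window lies before the gene, and the Fezf2 and Tbr1 windows lie inside it. These windows may therefore not be the main promoters.
Tshz2: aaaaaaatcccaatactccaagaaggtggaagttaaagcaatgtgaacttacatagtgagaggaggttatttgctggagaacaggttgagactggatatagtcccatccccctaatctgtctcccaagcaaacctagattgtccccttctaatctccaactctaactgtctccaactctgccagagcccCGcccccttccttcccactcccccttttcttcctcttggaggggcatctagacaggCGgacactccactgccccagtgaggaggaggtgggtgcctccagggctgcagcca
Fezf2: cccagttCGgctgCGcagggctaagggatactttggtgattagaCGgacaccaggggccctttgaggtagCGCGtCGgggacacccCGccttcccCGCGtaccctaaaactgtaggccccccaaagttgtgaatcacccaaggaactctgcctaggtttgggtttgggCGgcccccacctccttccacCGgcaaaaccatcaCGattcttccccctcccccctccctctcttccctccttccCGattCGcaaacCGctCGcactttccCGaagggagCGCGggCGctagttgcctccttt
Tbr1: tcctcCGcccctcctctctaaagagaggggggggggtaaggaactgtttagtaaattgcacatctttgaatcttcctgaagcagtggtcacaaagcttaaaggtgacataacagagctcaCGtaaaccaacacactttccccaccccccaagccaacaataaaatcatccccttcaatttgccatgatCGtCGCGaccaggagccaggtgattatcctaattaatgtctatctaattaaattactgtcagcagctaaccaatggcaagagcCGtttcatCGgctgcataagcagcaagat
Nr2f2: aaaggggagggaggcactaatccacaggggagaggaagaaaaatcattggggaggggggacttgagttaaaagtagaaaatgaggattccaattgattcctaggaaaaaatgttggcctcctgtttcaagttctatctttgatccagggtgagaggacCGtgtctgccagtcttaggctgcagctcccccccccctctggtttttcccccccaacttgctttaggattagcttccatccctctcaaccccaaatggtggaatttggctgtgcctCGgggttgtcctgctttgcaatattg
The Fezf2 window holds 20 CG, the Tbr1 window 7 and the Tshz2 and Nr2f2 windows 2 each, where the median over 32851 promoter windows of this length was 7. Among the genes that fell, these examples do not stand for all: the 3 windows of Lmo4 hold 52, 30 and 31 CG. RefSeq windows matched 28 of the 34 genes, not Crym, Pou3f1, Foxp2, Nfib, Ldb2 or Zfpm2. Over their 47 windows the median was 13, with 23 in the 11 windows of genes that rose, 8.5 in the 10 of genes that fell and 10.5 in the 26 of genes that did not pass, with ranges of 2 to 48, 1 to 52 and 1 to 51. The letters CCAAT, searched on both strands, were in the windows of Tshz2, Tbr1 and Nr2f2. At least 1 window held them in 16 of the 28 genes, and 37.4% of all windows did. TATAAA and CAGATG, searched likewise, were in 5 and 8 of the 28 genes and in 13.6% and 17.2% of all windows. A gene with several windows has more chances of a hit, so these gene counts cannot be set against the shares of windows. Several genes have more than 1 window, and of the genes that fell Crym, Pou3f1 and Ldb2 have none. Most windows of the genes that fell belong to Lmo4 and to Mef2c, whose windows hold 1, 10 and 4 CG. The CG medians thus depend on how many starts a gene has, and all these counts are a description without a test.

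Crym, which encodes the thyroid-hormone-binding protein mu-crystallin and marks subcerebral neurons of layer 5, fell most (chromosome 7, 120186380 to 120202111). It measured 86.6, 78.7 and 89.2 TPM in WT against 59.3, 57.3 and 53.0 in KO. The highest KO library lay well under the lowest WT library, WT replicate 2. The log2 fold change was -0.58 ± 0.06 SE (adjusted p = 0.0011). Ldb2, a cofactor that bridges LIM-domain factors, measured 152.3, 153.3 and 143.9 TPM in WT against 139.9, 136.8 and 134.8 in KO. Its fall to 91.5% was the smallest change that passed (adjusted p = 0.042), and the call was lost in each fit without WT replicate 1, WT replicate 2 or any KO replicate (adjusted p 0.0646 to 0.133), after median centring (0.0852), without the variance trend (0.118), with the replicate block (0.0633) and without a filter (0.0571).

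Of the deep-layer genes that did not pass, 3 had no overlap between the groups besides Tshz3, a pattern shown by 31.7% of all tested genes. Lmo3, a LIM-only protein, stood at 114.7 ± 1.64 TPM in WT and 110.4 ± 1.70 TPM in KO (adjusted p = 0.22). Zfpm2 (Fog2), a GATA cofactor of corticothalamic neurons, stood at 12.3 ± 0.231 and 14.5 ± 1.03 TPM (adjusted p = 0.070). Foxp2, the forkhead factor of layer 6, stood at 6.15 ± 0.668 and 4.92 ± 0.763 TPM (adjusted p = 0.19), and the lower end of its interval, -0.60 on the log2 scale, was the lowest among the genes that did not pass. Tle4, a Groucho corepressor of layer 6, and Etv1, an ETS factor of layer 5, overlapped between groups at 92.5% and 96.6% of WT. Of the 50-base stretches of Etv1 transcripts, 9.05% also occur in transcripts of other genes, most in Gm5454, so its value is less certain; for Foxp1 the share was 2.42%, and for each of the other 32 genes it was at most 0.40%.

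**Figure D3:**
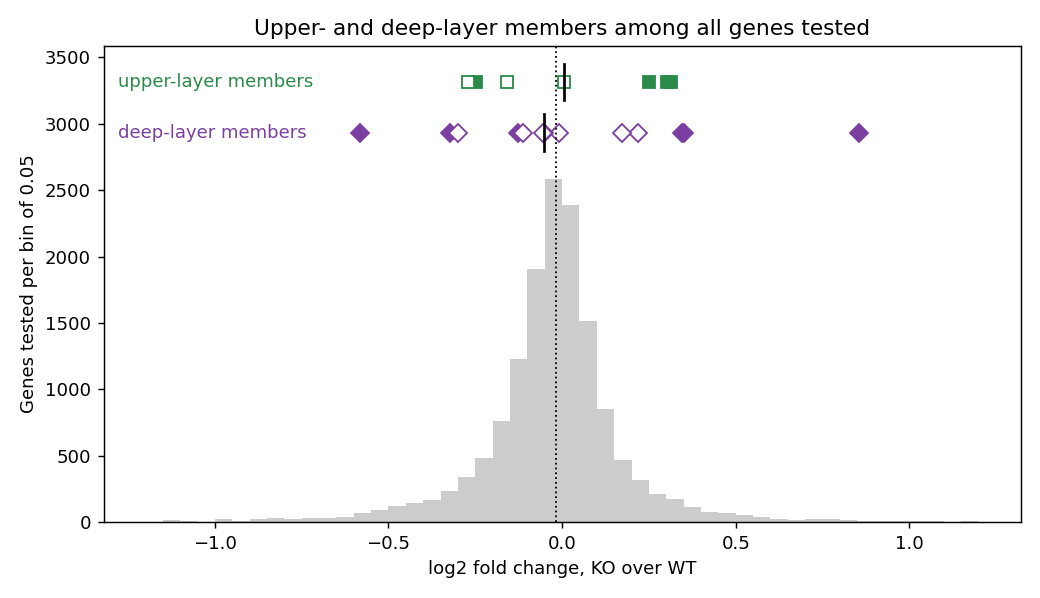
Histogram of the log2 fold change of KO over WT for the genes tested, in bins of 0.05, with 152 genes beyond 1.2 in either direction not drawn; squares are upper-layer and diamonds deep-layer genes, filled where they passed, short bars are their medians and the dotted line is the median of all genes. Both groups reach to both sides of the bulk of genes, with medians of 0.01 and -0.05.

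Among the genes expressed in several layers, Bcl11a rose and Lmo4 and Mef2c fell. Lmo4, a LIM-only protein of callosal and sensory area neurons, measured 269.0, 281.5 and 277.1 TPM in WT against 221.3, 217.1 and 214.0 in KO, 78.8% of WT (a log2 fold change of -0.34 ± 0.03 SE, adjusted p = 3.5e-04). The groups differ by far more than the spread within them. Mef2c, an activity-regulated MADS-box factor and the most abundant of the 34, measured 466.9, 463.4 and 476.0 TPM in WT against 435.8, 408.1 and 414.4 in KO, 89.5% of WT (adjusted p = 0.012). Bcl11a (Ctip1), a zinc finger factor that favours corticocortical over subcerebral projection, measured 43.8, 42.9 and 44.0 TPM in WT against 48.5, 49.2 and 49.6 in KO, 112.7% of WT (adjusted p = 0.012). These 2 smaller changes were also free of overlap. Zbtb18 (RP58), a repressor needed for neuron differentiation, stood at 107.8% of WT (adjusted p = 0.052, or 0.0313 without WT replicate 3). Foxp1, a forkhead factor of the middle layers and of striatal neurons, stood at 86.6% (adjusted p = 0.060, or 0.0346 without KO replicate 1). Both were without overlap. Leaving out any other library gave limma adjusted p of 0.0989 to 0.138 for Zbtb18 and 0.0822 to 0.154 for Foxp1. Id2, an inhibitor of bHLH factors, overlapped at 201.1 ± 9.63 and 203.7 ± 4.85 TPM, with an interval from -0.07 to 0.11 on the log2 scale.

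None of the 3 nuclear factor I genes, which encode DNA-binding factors of neuronal and glial maturation, passed with limma, and the libraries of both groups overlapped in each. Nfia, Nfib and Nfix stood at 99.9%, 111.5% and 101.2% of WT. Of the 3, only Nfib had an unadjusted p below 0.05 (0.0150, adjusted p = 0.092), and it passed without WT replicate 3 (adjusted p = 0.0365). Nfib did not pass when any other library was left out (limma adjusted p 0.0919 to 0.227).

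Of the 5 cortical field genes 4 passed: Emx2 and Lhx2 rose and Nr2f1 and Nr2f2 fell. Nr2f2 (COUP-TFII; chromosome 7, 70351944 to 70366735), an orphan nuclear receptor of the caudal cortex that also marks interneurons of the caudal ganglionic eminence, measured 20.0, 19.9 and 22.1 TPM in WT against 14.9, 13.0 and 14.3 in KO. It fell to 68.1% of WT (a log2 fold change of -0.54 ± 0.07 SE, adjusted p = 0.0026), the second largest fall of the 34. Nr2f1 (COUP-TFI; chromosome 13, 78188973 to 78199757), which sets the border between motor and sensory areas, measured 108.0, 106.6 and 106.6 TPM in WT against 96.1, 92.1 and 91.1 in KO, 87.0% of WT (adjusted p = 0.0047). Each KO library of both receptors lay under each WT library. Both have an opposite-strand neighbour with overlapping exons: A830082K12Rik stood at 88.0% of WT (adjusted p = 0.19), and B130024G19Rik, too low to be tested, at 0.668 ± 0.0698 TPM in WT and 0.288 ± 0.140 TPM in KO.

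Emx2 (chromosome 19, 59458372 to 59465357), a homeobox factor of caudal and medial cortical identity, measured 14.6, 14.5 and 14.8 TPM in WT against 18.3, 18.3 and 19.7 in KO (1.28-fold, adjusted p = 0.0051). Its antisense partner Emx2os stood at 134.4% of WT (adjusted p = 0.11). The Emx2 groups do not overlap. Lhx2, a LIM-homeobox factor that keeps cortical identity in progenitors, measured 90.7, 89.2 and 86.4 TPM in WT against 97.7, 101.0 and 95.9 in KO (1.11-fold, adjusted p = 0.026). Lhx2 lost its call without WT replicate 1, 2 or 3 or KO replicate 1 or 2 (adjusted p 0.0513 to 0.0867). The call was also lost without the variance trend (0.0804) and with the replicate block (0.0552). Emx1, the paralogue of Emx2 and a marker of the excitatory lineage, overlapped at 21.4 ± 2.57 and 23.5 ± 1.09 TPM, and its interval from -0.06 to 0.32 on the log2 scale reaches nearly as far as the rise of Emx2.

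**Figure D4:**
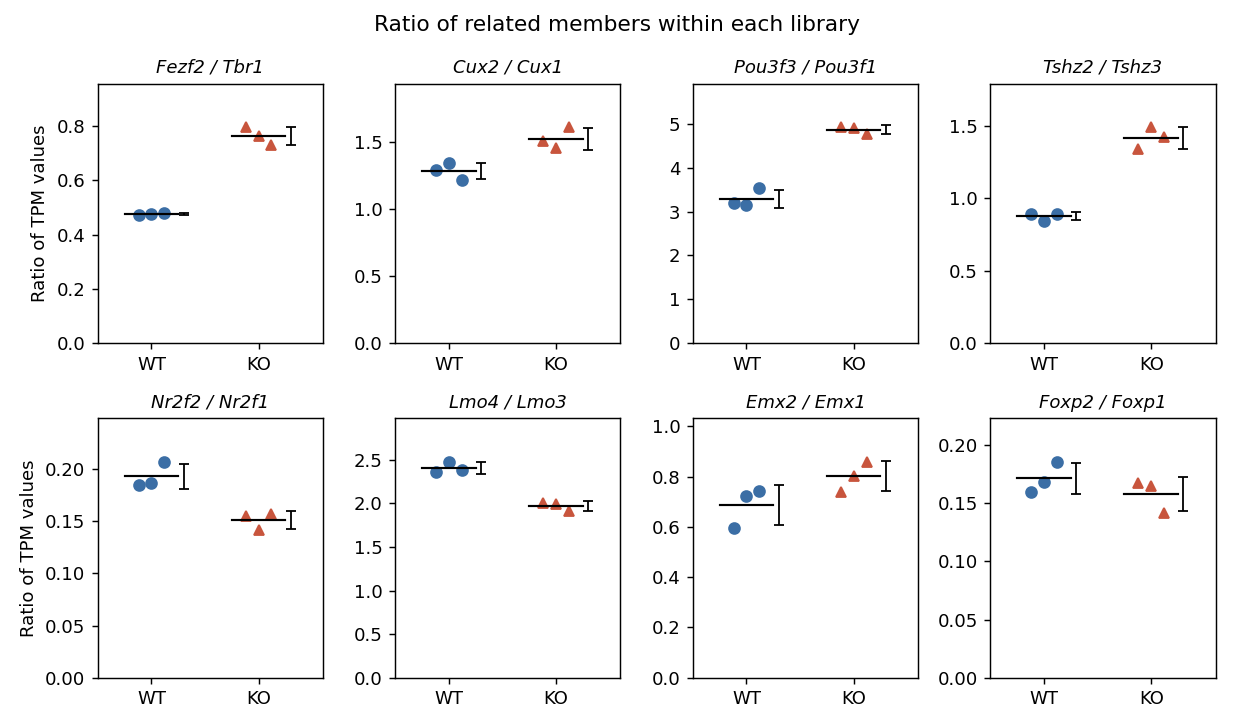
Ratio of the TPM values of 8 pairs of these genes within each library, with points for the 3 WT and 3 KO libraries, a line at the mean and error bars of 1 SD. Fezf2/Tbr1 moves from 0.476 to 0.764 and Tshz2/Tshz3 from 0.878 to 1.42, while Emx2/Emx1 and Foxp2/Foxp1 overlap between the groups.

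Some members of 1 gene family differed from each other in their single-gene results above. The ratio within a library restates this without any scaling. It was computed for 11 pairs chosen with the values known. A gap in it therefore adds no evidence to the single-gene results, and it is given without a test. The ratio of Tshz2 to Tshz3 was 0.895, 0.845 and 0.893 in WT and 1.34, 1.496 and 1.42 in KO. That of Pou3f3 to Pou3f1 was 3.20, 3.14 and 3.53 in WT and 4.94, 4.92 and 4.76 in KO. The WT and KO libraries lay apart in both. Gaps without overlap were also seen for Pou3f3 to Pou3f2 (4.88 ± 0.309 in WT and 6.81 ± 0.141 in KO), Cux2 to Cux1 (1.29 ± 0.0620 in WT and 1.52 ± 0.0822 in KO), Bcl11a to Bcl11b (0.968 ± 0.0441 and 1.10 ± 0.0471), Nfib to Nfia (2.50 ± 0.0240 and 2.79 ± 0.0809), Lmo4 to Lmo3 (2.40 ± 0.0652 and 1.97 ± 0.0525) and Nr2f2 to Nr2f1 (0.193 ± 0.0124 and 0.151 ± 0.00846). Emx2 to Emx1 and Foxp2 to Foxp1 overlapped.

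Counted without a test, 25 of the 34 genes had no overlap between the 3 KO and the 3 WT libraries, 12 with KO above and 13 with KO below. That is 73.5%, where 31.7% of all tested genes showed it. Among the 11487 genes at or above the level of the lowest of the 34 the share was 34.4%. By size most changes were modest. Tshz2 and Crym differed by at least 1.5-fold, and the median absolute log2 fold change of the 17 genes that passed was 0.31, against 0.26 for all 1632 genes that passed.

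Other layer genes, from lists drawn up with earlier results of these data known, were as mixed. Over all genes tested 4.15% rose and 6.74% fell. Of 15 further upper-layer and callosal genes, 2 rose, 4 fell and 9 did not pass, with a median log2 fold change of 0.00. The lipoprotein lipase gene Lpl rose 1.33-fold and the growth factor gene Ptn 1.15-fold, while the cadherin gene Cdh13 and the calcium buffer gene Calb1 fell to 75.9% and 78.8% of WT. Of 20 further deep-layer and subplate genes tested, out of 22 listed, 3 rose, 6 fell and 11 did not pass, with a median of -0.08. Crim1, Rprm and Igfbp4 rose 1.23-fold, 1.19-fold and 1.15-fold, and Pex5l fell to 79.6% of WT. Markers of subcerebral and corticospinal neurons went both ways: Crim1 and Igfbp4 rose, while S100a10 and Pcp4 fell to 87.5% and 89.9% of WT (adjusted p = 0.035 and 0.022), as did Crym and Ldb2 above.

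Markers of other cell types moved beside these genes. Their lists too were drawn up with earlier results of these data known, so the counts are a description. The shares over all genes tested were 4.15% higher and 6.74% lower. In bulk RNA, fewer cells of a type and less RNA per cell cannot be told apart. Of 12 interneuron markers 9 fell and 1, Dlx1, rose, which bears on Nr2f2. Their summed level was 1321 to 1364 TPM in the WT libraries and 980.8 to 1062 TPM in the KO libraries. Of 6 markers of excitatory neurons 4 fell, Slc17a7, Slc17a6, Neurod2 and Camk2a, with sums of 1303 to 1331 and 930.6 to 974.7 TPM, and the other 2 did not pass. Of 8 striatal markers tested 2 fell and 1 rose (sums of 292.6 to 302.5 TPM and 270.9 to 281.0 TPM), which bears on Foxp1, Foxp2 and Bcl11b. Of 11 markers of astrocytes and radial glia 3 rose (Aldoc, Slc1a3 and Fabp7) and 3 fell (Aldh1l1, Vim and Nes). This bears on Emx2, Lhx2 and the nuclear factor I genes. The glial sums (4663 to 4877 and 5124 to 5313 TPM) rest more on Fabp7 than on any other marker, at 2509 TPM in WT and 2743 TPM in KO. Of 4 hippocampal markers tested, out of 5 listed, Spock1 fell and the other 3 did not pass, with sums of 280.3 to 291.7 TPM in WT and 248.8 to 257.5 TPM in KO. Of 6 markers of the oligodendrocyte lineage 2 fell and 4 did not pass (594.4 to 631.1 and 601.5 to 620.1 TPM). Of 4 endothelial and pericyte markers tested Kdr fell, to 61.0% of WT (17.6 to 19.4 and 15.6 to 16.6 TPM), and of 4 progenitor and cycling markers tested 0 passed with limma, with 2, Top2a and Ccnb1, at an unadjusted p below 0.05 (93.0 to 96.2 and 82.2 to 91.9 TPM). The part of any of these cell types in the differences of the 34 genes was not tested. Microglial markers summed to at most 2.70 TPM in any library. Of 4 Cajal-Retzius markers tested, out of 6 listed, Reln rose 1.16-fold (limma adjusted p = 0.0020) and the other 3 did not pass. Their sums were 212 to 226 TPM in WT and 235 to 237 TPM in KO. Trp73, Lhx5 and Lhx1 were each at or below 0.812 TPM, although Reln was above 104 TPM throughout. Ndnf and Calb2 averaged 18.1 and 94.6 TPM in WT.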

How the data were processed

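The authors deposited 1 table of 20040 gene entries by 6 libraries. Its values are TPM by the deposited numbers, since each column sums to 1000000, although its name says FPKM. The submitters' processing notes list TopHat, featureCounts, edgeR, Picard 1.127, FastQC 0.11.2 and bcl2fastq 2.17 beside the build mm10, with no role or order. Neither annotation nor strand setting is given in the sources used here. As a measure of depth, the smallest whole counts that fit the TPM of an entry in the 6 libraries were found for each of the 19369 entries above 0 (tolerance 0.001 counts plus 1e-08 of the value); true counts could be whole multiples.

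The test of KO against WT took genes averaging 0.5 TPM or more and ran on log2 of TPM plus 0.5 with limma 3.58.1 (R 4.3.3; moderated variances with a trend, no covariates, Benjamini-Hochberg over 14983 genes). Fold changes on this scale are understated for low genes; folds and percentages in the text are ratios of mean TPM. The code was tested on simulated data. Alternatives changed the pseudocount, filter, variance model, scaling, block and libraries. Replicate libraries differed by 1.27 to 2.04 times counting noise (median chi-square over its expectation), so none was treated as a copy. Positions are GENCODE M21 on GRCm38, the build also called mm10. The 34 genes and all lists were chosen with earlier results of these data known. By rule, Kdm6b and all 34 genes are named, with values per library for those that passed, and of each further layer list at most 4 genes with the smallest adjusted p; marker lists are given as counts and sums, and the genes named from them, with S100a10 and Pcp4, were chosen after their values were seen.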

Additional observations from a re-analysis of the deposited data

How the results depend on the processing

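Of the 17 genes that passed, 10 kept their call in each of 16 alternatives, namely Tshz2, Fezf2, Sox5, Pou3f3, Emx2, Tbr1, Crym, Lmo4, Nr2f1 and Nr2f2. Bcl11a missed it with the replicate block alone (adjusted p = 0.0504) and Mef2c without the variance trend alone (0.0658). None of the 17 changed sign, and 6 of the 17 others passed in some alternative. With the replicate block 5 rose and 6 fell (360 and 585 of all genes, against 622 and 1010 without it), although libraries of the same number did not deviate together (r = 0.00775, -0.0511 and 0.011). Without the variance trend 6 rose and 5 fell (406 and 658 of all genes). Scaling shifted the balance from 9 higher and 8 lower to 12 and 6 after median centring and 12 and 7 after quantile normalization; over all genes the higher share of calls went from 38.1% to 53.1% and 49.2%. When 1 library at a time was left out, 6 to 8 rose and 6 to 8 fell (355 to 454 and 531 to 698 of all genes), and the median log2 fold change ran from -0.03024 to 0.0446 for upper-layer genes and from -0.05893 to -0.00458 for deep-layer genes, the latter end without KO replicate 3. Without short loci and X and Y genes 12 rose and 10 fell (768 and 1195 of all genes). A test on the recovered counts was not run, since the deposited values are TPM. Depth limits Emx1 and Foxp2 most, which had the fewest counts.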
